A study of Mus musculus with 5 samples.

Results

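The GSK3 inhibitor CHIR99021 (CH) and the MEK inhibitor PD0325901 (PD) were set against each other in mouse epiblast stem cells, with 1 bead array each. All genes whose brightest named probe was detected on the CH or the PD array were compared. Detected means a detection p under 0.01 against the negative control probes of that array. The genes compared numbered 7713 of the 16593 on the array. Of them 7045 were detected on both arrays, 266 on the CH array only and 402 on the PD array only. At a detection p under 0.05 the number would have been 8921.

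The cells were of the E3 line, kept in KSR medium with FGF2 at 5 ng/ml over a layer of inactivated CF1 mouse embryonic fibroblasts until semiconfluent, and then given new medium for 12 h. In that time FGF2 was absent from every culture: the untreated cells had KSR medium alone, and the others had 1 µM PD0325901 (PD), 3 µM CHIR99021 (CH), 1000 U/ml LIF (LIF) or all 3 agents at these doses (PCL). The untreated, LIF and PCL arrays serve here for reference levels. Each condition had 1 array from 1 line, fibroblasts were in the culture, and no difference below has a replicate check. Levels are normalized bead intensities on the log2 scale, a difference of 1 is 2-fold, and the error after ± is the bead standard error within the arrays, which does not cover the spread between cultures.

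GSK3 phosphorylates beta-catenin and so marks it for degradation, and when the kinase is blocked, as it is by a Wnt signal, beta-catenin accumulates and acts with TCF/LEF factors on target genes. MEK phosphorylates ERK, through which FGF signals reach immediate early genes, ETS factors and a set of phosphatases that feed back on the pathway. In the embryo, Wnt and FGF signals both act in the epiblast around the primitive streak, where mesoderm and endoderm form, and in culture inhibitors of these kinases are combined with LIF to maintain naive embryonic stem cells.

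The labelled cell type was checked first. All 9 epiblast stem cell markers on the array (of 10 fixed) were detected on every array, among them Pou5f1, whose CH minus PD difference was 0.03 ± 0.12. Fibroblast markers were also present: 22 of the 28 on the array entered the comparison, while Col1a2, Col3a1, Col5a2, Postn, Pdgfrb and S100a4 were not detected on the CH or PD array. Between 10389 and 10898 of 25697 probes were detected per array. The LIF array stood apart, with 210 to 301 genes 2-fold apart from each of the other arrays, against 64 to 147 among those others.

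By the number of genes at least 2-fold apart, CH and PD were farther from each other than either was from the untreated array. At least 2-fold apart were 147 genes between CH and PD, against 68 between CH and untreated and 69 between PD and untreated over the same genes. The median absolute difference was 0.235, 0.188 and 0.225, so by this measure CH to PD and PD to untreated were nearly level. Of the 147 genes, 78 stood higher with CH (1.01% of those compared) and 69 lower (0.895%). Detected on both arrays were 54 of the 78 and 51 of the 69. The other 24 were detected with CH only and the other 18 with PD only, so they entered through the array where they were high. With undetected probes at their bound, 66 and 58 passed 2-fold. At 1.5-fold the counts were 412 higher (5.34%) and 489 lower (6.34%). The median CH minus PD difference over all genes was -0.01 with an SD over genes of 0.41. Among genes of increasing genomic span, a measure that can move with RNA quality, the median difference in 10 groups of equal size ran from 0.05 among shorter genes to -0.10 among longer ones, and whether span bears on single genes was not tested.

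**Figure D1:**
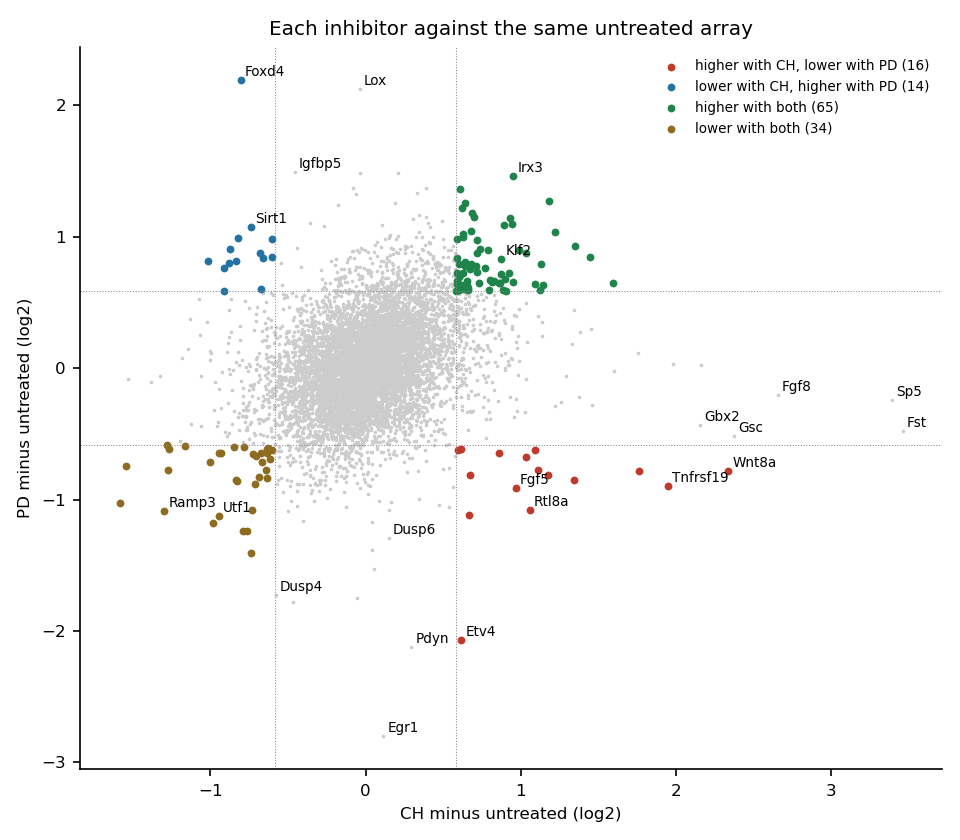
Difference of each of the 7713 genes from the untreated array, with CH on the horizontal and PD on the vertical axis (log2). Dotted lines mark 1.5-fold, and coloured points are the 16 and 14 genes on opposite sides and the 65 and 34 genes on the same side of untreated with both inhibitors. Fst, Sp5 and Fgf8 lie far right near 0 on the PD axis, Egr1 and Etv4 far down, and Foxd4 at the top left.

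The genes most higher with CH were led by secreted factors and transcription factors of the primitive streak and by Wnt targets. Fst encodes follistatin, a secreted antagonist of activin. Its level was 6.12 untreated, 5.64 under PD, 9.58 under CH, 5.69 under LIF and 8.21 under PCL, so that both arrays with the GSK3 inhibitor were high and the other 3 low. The CH minus PD difference was 3.95 ± 0.17, the largest of all genes compared.

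Sp5, a Wnt-induced transcription factor, stood at 4.59, 4.34, 7.98, 4.31 and 8.06 on the untreated, PD, CH, LIF and PCL arrays. It was detected with CH and PCL only, and was at least 7.53-fold higher with CH than with PD. Wnt8a, a Wnt ligand of the early embryo, stood in the same order at 7.63, 6.85, 9.97, 5.58 and 9.12. It was high with CH and PCL and lowest with LIF, with a CH minus PD difference of 3.12 ± 0.12 that its other probes put at 2.31 to 3.03. Gsc, the homeobox gene of the organizer, stood at 6.54, 6.02, 8.92, 5.65 and 7.53, a difference of 2.89 ± 0.13. Fgf8, a growth factor of the streak, stood at 7.44, 7.24, 10.10, 6.04 and 10.10, a difference of 2.86 ± 0.10. On the PCL array Sp5 and Fgf8 stood about at their CH level, whereas Gsc and Fst lay between the CH and PD levels.

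Tnfrsf19, a TNF receptor family member induced by Wnt signals, stood at 5.65, 4.75, 7.60, 5.47 and 7.70 and was at least 5.80-fold higher with CH than with PD. Gbx2, a homeobox factor of the early neural plate and of naive cells, stood at 5.09, 4.65, 7.25, 4.58 and 8.79 and was at least 4.53-fold higher. Gbx2 was higher with PCL than with CH, by 1.55. Eomes, a T-box factor of mesoderm and endoderm, was at least 2.32-fold higher with CH, with levels of 4.83, 4.54, 6.28, 4.99 and 5.73.

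In 3 of the 20 genes most higher with CH, the PD array lay farther from untreated than the CH array did by over 2-fold. Egr1, an immediate early transcription factor, stood at 7.78, 4.98, 7.90, 7.37 and 4.82. It was not detected on either array that received the MEK inhibitor, and it was at least 7.12-fold higher with CH than with PD. Etv4, an ETS factor that follows FGF signals, stood at 7.53, 5.46, 8.15, 7.25 and 5.44, with a CH minus PD difference of 2.69 ± 0.20. Pdyn, which encodes the opioid precursor prodynorphin, stood at 6.60, 4.48, 6.89, 6.19 and 5.73 and was at least 3.54-fold higher by its brighter probe, but its other detected probe gave a difference of 0.26.

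Among the other members of the top 20 were cell surface proteins, enzymes, small gag-like proteins and a growth factor. The receptor tyrosine kinase Epha1 stood at 2.20 ± 0.14 (its other probes at 1.60 to 1.89), the TGF-beta co-receptor Tgfbr3 at 1.96 ± 0.14 (other probe 1.29) and the ectonucleotidase Nt5e at 2.55 ± 0.16 (other probe 0.91). Rtl8c was at least 4.26-fold higher, Rtl8a stood at 2.14 ± 0.19 and Rtl8b, the other member of this family, at 1.29 ± 0.19. The Rtl8 genes are near-identical copies of a retrotransposon-derived gene, and hybridization between their probes cannot be told apart from separate expression. The others were the kinase Dapk2 at 1.99 ± 0.15, Cyria at 1.89 ± 0.18, the growth factor Fgf5 at 1.88 ± 0.09 and the carbonic anhydrase Car2 at 1.79 ± 0.17.

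**Figure D2:**
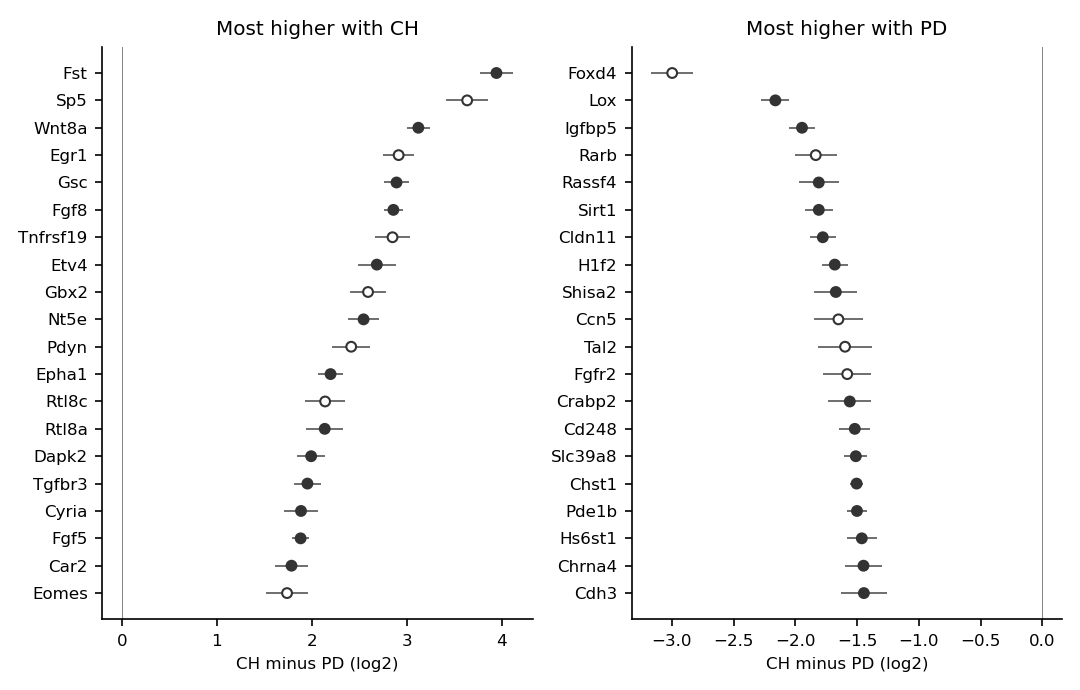
CH minus PD difference (log2) of the 20 genes most higher with CH (left) and the 20 most higher with PD (right), with the bead standard error as a bar. Open circles are genes detected on 1 of the 2 arrays, whose difference is given in the text as a bound. Fst and Sp5 reach beyond 3.5, while Foxd4 is the only gene near -3 and the next, Lox, lies at -2.16.

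Promoter sequences are shown for the genes higher with CH that carry the letters of a TCF/LEF site, since Sp5 and Tnfrsf19 were among the 7 largest differences. The RefSeq windows (build GRCm38.p6, 250 bases before to 50 after the start) were searched on both strands for CTTTGAT, a TCF/LEF core. It was found in 5 of the 55 genes at least 2-fold higher with CH that have a window (9.09%), in 1 of the 49 genes lower (2.04%, the SUMO ligase gene Pias3), in 183 of the 6319 compared genes with a window (2.90%) and in 3.73% of all 32851 windows. The 250 bases before the start of Sp5 lie at chr2:70474673-70474922 on the plus strand, with the core in capitals 104 bases before the start.
Sp5: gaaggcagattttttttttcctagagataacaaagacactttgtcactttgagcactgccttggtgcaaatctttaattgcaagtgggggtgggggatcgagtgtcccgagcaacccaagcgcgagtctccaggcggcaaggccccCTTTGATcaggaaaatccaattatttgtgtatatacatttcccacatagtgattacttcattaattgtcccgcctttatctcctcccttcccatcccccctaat
The cores of the other 4 genes, each with 10 bases on either side and 5' to 3' along the gene, lie at chr14:61038173-61038199 (minus strand, 202 bases before the start), chr6:119449441-119449467 (minus strand, 71 before), chr10:21978483-21978509 (plus strand, 179 before) and chr2:148045434-148045460 (minus strand, 14 bases into the transcript). Capitals mark the core, which in Tnfrsf19 and Foxa2 reads as its reverse complement.
Tnfrsf19: tgaatgggggATCAAAGtgacaaacta
Wnt5b: gtaagtctctCTTTGATctgctccctg
Sgk1: cacctaagagCTTTGATgtttcaaagt
Foxa2: caggcaaagaATCAAAGaccagtggac
Sp5 has 1 window, each of the other 4 genes has the core in 1 of its 2 to 6 windows, and Axin2 has none in its window. Fst, Wnt8a, Fgf8 and Etv4 are not among the 55 genes, so the share does not cover them. Of the 5 genes, Wnt5b and the kinase Sgk1 passed 1.5-fold from untreated on the PD array only, where they were lower. An ETS core, CCGGAAG, was found in 7 of the 55 genes higher with CH (12.73%), in 1 of the 49 lower (2.04%) and in 21.73% of all compared genes with a window, and the window of Dusp6 holds none. A match to these letters is a description of the window and was not tied to binding.

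Wnt target genes as a list stood mostly higher with CH. Of 29 genes of the list on the array, 15 were compared and 10 detected on both arrays. By measured level 5 passed 2-fold higher (Sp5, Wnt8a, Tnfrsf19, Apcdd1 and Axin2), against 1.01% of all genes, and 1 lower (Fgf4). The bound of Apcdd1 falls short of 2-fold. The median difference of the list was 0.60 against -0.01 over all genes. Over the 10 detected on both arrays that median was 0.39, it was 0.20 with no detection filter, and a member detected only with CH enters through its high value. Axin2, the scaffold that feeds back on the pathway, stood at 6.14 untreated, 6.43 under PD, 7.59 under CH, 5.97 under LIF and 7.61 under PCL. Its CH minus PD difference was 1.16 ± 0.15, and the inhibitor of Wnt receptors Apcdd1 was at least 1.74-fold higher. The cyclin gene Ccnd1 stood at 0.77 ± 0.07. Fgf4, a growth factor of pluripotent cells, stood at 7.13, 7.07, 5.80, 7.82 and 5.30 in the same order and was low on both arrays with the GSK3 inhibitor, with a difference of -1.27 ± 0.19. Lef1 is a target and a partner of beta-catenin, and it was not detected on any array.

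Components of the Wnt pathway itself moved less and mostly the other way. Of 21 compared, 5 stood above 0 and 16 below, with a median of -0.29 (-0.10 with no detection filter). The targeted kinase is inhibited as a protein, and the Gsk3b transcript stood at -0.29 ± 0.16 and that of beta-catenin, Ctnnb1, at -0.18 ± 0.07. The receptor gene Fzd10 was the exception upwards, with levels of 6.26, 6.38, 8.02, 5.86 and 8.41 and a difference of 1.64 ± 0.14. Frat2, which binds and inhibits GSK3, stood at 7.18, 7.08, 5.80, 7.23 and 5.31, so both arrays with the GSK3 inhibitor lay below the other 3, and its difference was -1.28 ± 0.20. Tcf7l1, a TCF that represses targets, stood at -0.87 ± 0.06, and the secreted antagonist Sfrp1 at -1.02 ± 0.19, in which the PD array was the high one at 7.55 against 6.72 untreated and 6.53 with CH.

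The list of ERK targets and feedback regulators had 36 genes on the array, of which 21 were compared. Higher with CH than with PD were 19 of the 21, against 3731 of all 7713 genes. At least 1.5-fold higher were 11 of the list (5.34% of all genes) and lower 0 (6.34%). The median was 0.70 (0.58 over the 18 detected on both arrays and 0.26 with no filter). Egr1, Etv4, Dusp6, Dusp4, Epha2 and Phlda1 passed 2-fold higher, as did 1.01% of all genes. Dusp6, the cytoplasmic phosphatase of ERK, stood at 9.13 untreated, 7.84 under PD, 9.28 under CH, 8.69 under LIF and 7.28 under PCL. Both arrays with the MEK inhibitor were low, and the difference of 1.44 ± 0.11 was 1.11 by the other probe. Dusp4, a nuclear phosphatase of the same family, stood at 7.53, 5.80, 6.95, 7.37 and 5.45, again low on the PD and PCL arrays, with a difference of 0.80 by its other probe. The ETS factor Etv5 stood at 0.72 ± 0.20, the Ephrin receptor Epha2 at 1.11 ± 0.15 and the feedback inhibitor Spry4, detected with CH and not with PD, was at least 1.80-fold higher. Its relative Spry2 was not detected on any array. The transcript of MEK itself differed little between the arrays, at -0.46 ± 0.19 for Map2k1 and 0.27 ± 0.08 for Map2k2.

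Streak and organizer genes were 8 of the 78 genes at least 2-fold higher with CH, and the 78 are 1.01% of all genes compared. Of 31 streak and organizer genes on the array, 19 were compared and 9 detected on both arrays. At least 2-fold lower stood 0 of them, against 0.895% of all genes. The median was 0.89, but 0.42 with undetected probes at their bound, 0.35 over the 9 and 0.26 with no filter. Besides Fst, Gsc, Fgf8 and Eomes the 8 were Mixl1 (at least 1.79-fold), Wnt3 (at least 1.65-fold), Fgf17 (at least 1.67-fold) and Foxa2 (at least 1.21-fold), whose bounds fall short of 2-fold. Chrd, a BMP antagonist of the organizer, lay at the threshold with 1.00 ± 0.12, just outside it. Just inside lay the chemokine Cx3cl1 at 1.00 and Arhgap22 at 1.01, and on the lower side Pls3 at -1.01.

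Ligands and receptors of the growth factor families split between the inhibitors. Nodal, the ligand that patterns the epiblast, stood at 8.43, 8.61, 9.76, 8.48 and 9.41 on the untreated, PD, CH, LIF and PCL arrays, a difference of 1.15 ± 0.14. Its pathway's receptor Tgfbr1 stood at -0.81 ± 0.07, and over the 22 compared genes of the Nodal, activin and TGF-beta list the median was -0.15, with 3 at least 1.5-fold higher and 5 lower. Of 11 FGF ligands and receptors compared, 7 were detected on both arrays, and the median was 0.27, also with undetected probes at their bound. By measured level, Fgf8, Fgf5 and Fgf17 passed 2-fold higher and Fgf4 and Fgfr2 lower. By its bound the receptor Fgfr2 was at least 1.70-fold lower with CH than with PD. This bound and that of Fgf17, given above, fall short of 2-fold. The 11 genes of the BMP list had a median of 0.13, with Id1 at 0.61 ± 0.19, and that median turned to -0.04 over its 8 members detected on both arrays.

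The genes most higher with PD were led by Foxd4, a forkhead factor of the early neural plate. It stood at 5.10 untreated, 7.29 under PD, 4.29 under CH, 5.36 under LIF and 4.58 under PCL, and was at least 4.50-fold lower with CH than with PD. The PD array alone was high, and the array with both inhibitors and LIF was close to the CH level. Lox, which crosslinks collagen, stood at 7.71, 9.83, 7.67, 8.03 and 9.10, a difference of -2.16 ± 0.11, with both arrays that received the MEK inhibitor high. Igfbp5, a binding protein of insulin-like growth factors, stood at 8.16, 9.65, 7.70, 8.71 and 8.29, a difference of -1.95 ± 0.11, high with PD and not with PCL.

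Others of the 20 most lower with CH have roles in retinoid signalling, cell contact and chromatin. The retinoic acid receptor Rarb was at least 3.40-fold lower (its other probe at -0.99), and Crabp2, which carries retinoic acid, stood at -1.56 ± 0.18. The deacetylase gene Sirt1 stood at 8.40, 9.47, 7.66, 9.21 and 8.08, a difference of -1.81 ± 0.11, with the LIF array high as well. The tight junction gene Cldn11 stood at -1.78 ± 0.10, the cadherin gene Cdh3 at -1.45 ± 0.19 (other probes -1.05 to -1.02) and the linker histone gene H1f2 at -1.68 ± 0.10. Rassf4 stood at -1.81 ± 0.16 (other probes -1.59 to -0.78), Shisa2, whose relative in the frog holds back FGF and Wnt receptors, at -1.67 ± 0.17, and Ccn5 was at least 2.18-fold and Tal2 at least 1.98-fold lower. The zinc transporter Slc39a8 (-1.51 ± 0.09), the sulfotransferases Chst1 (-1.50 ± 0.05) and Hs6st1 (-1.46 ± 0.12), the phosphodiesterase Pde1b (-1.50 ± 0.08), the acetylcholine receptor subunit Chrna4 (-1.45 ± 0.15) and the stromal glycoprotein Cd248 (-1.52 ± 0.13, other probe -0.78) completed them.

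Fibroblast markers were lower with CH than with PD in 17 of the 22 compared, with a median of -0.53, 9 at least 1.5-fold lower and 0 higher. Over all 7713 genes, 3972 stood below 0, and 6.34% were at least 1.5-fold lower and 5.34% higher. Lox, Cd248 and Timp3, an inhibitor of matrix proteases at -1.27 ± 0.13, passed 2-fold. The log2 summed intensity of the 22 was 13.11 untreated and, with PD, CH, LIF and PCL, 13.70, 13.18, 13.29 and 13.45. The arrays with the MEK inhibitor were thus the highest in the sum, but Acta2, the brightest of these markers, weighs most in it. Acta2 stood at 11.67, 12.42, 11.85, 11.61 and 12.25 in the same order. With Acta2 taken out, the PD array is still the highest in the sum, but PCL falls below LIF. The place of the PCL array above LIF thus rests on Acta2. Collagen gene Col6a1 stood at 0.04 and Vim, the mesenchymal intermediate filament, at 0.28. Fewer cells of a type and less RNA per cell cannot be told apart in these cultures, and the part of feeder cells in the genes higher with PD was not tested. Genes of the cytoskeleton and Hippo list, some of which fibroblasts also express, had a median of -0.33, with 15 of 18 below 0 and the matricellular gene Ccn2 at -0.96 ± 0.06.

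**Figure D3:**
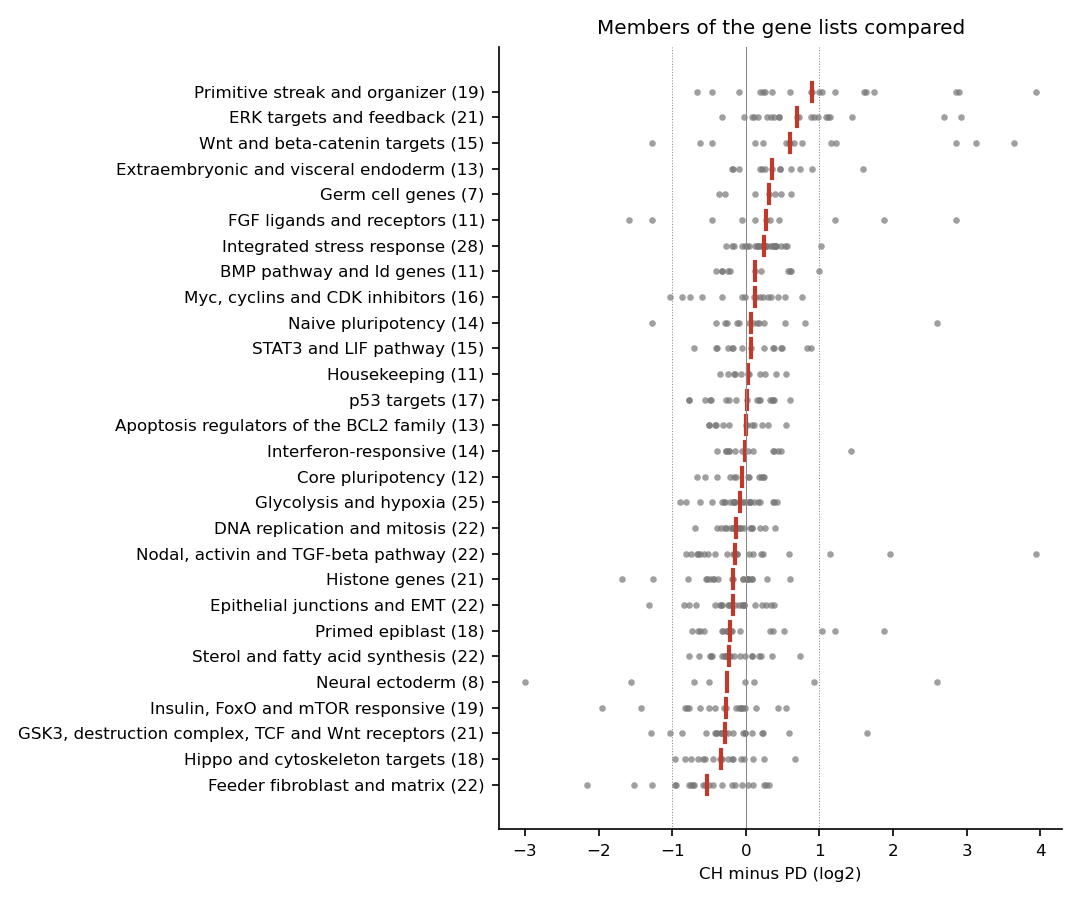
CH minus PD difference (log2) of the compared members of the 28 gene lists, ordered by median, with a grey point per gene, a red bar at the median, the number compared in parentheses and dotted lines at 2-fold. Streak genes, ERK targets and Wnt targets head the order with medians of 0.89, 0.70 and 0.60, and fibroblast genes stand last at -0.53.

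Opposite and shared genes were counted against the untreated array. At least 1.5-fold from untreated were 310 genes higher (4.02%) and 240 lower (3.11%) with CH, and 447 higher (5.8%) and 284 lower (3.68%) with PD. The differences of CH and of PD share that array, so a low or high untreated value moves both the same way, and only the counts that the rule fixes are given. Opposite were 16 genes higher with CH and lower with PD (0.207%) and 14 lower with CH and higher with PD (0.182%).

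The 16 genes higher with CH and lower with PD included growth factors, receptors, enzymes and transcription factors. Fgf5, the epiblast marker, stood at 8.73 untreated, 7.82 under PD, 9.70 under CH, 8.44 under LIF and 7.58 under PCL, that is 0.97 ± 0.10 with CH and -0.91 ± 0.12 with PD from untreated. Wnt8a stood at 2.34 ± 0.13 and -0.78 ± 0.15, and its other probes at 1.88 to 2.33 and at -0.70 to -0.43. Epha1 stood at 1.34 ± 0.12 and -0.85 ± 0.13, and each of its 3 other probes was past 1.5-fold both ways. On the PCL array Fgf5 lay near its PD level and Wnt8a nearer to its CH level.

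Sema5a, an axon guidance semaphorin, stood at 1.04 ± 0.16 and -0.68 ± 0.18 and passed 1.5-fold both ways by its other probe too. Rtl8a stood at 1.06 ± 0.22 and -1.08 ± 0.26, Nt5e at 1.76 ± 0.17 and -0.78 ± 0.20, and Tnfrsf19 at 1.95 ± 0.14 with CH and -0.90 ± 0.19 with PD, where it was not detected. The other probe of Nt5e was at 0.94 with CH and 0.03 with PD, so its lower side with PD rests on 1 probe. Dapk2 (1.18 and -0.82), Cyria (1.11 and -0.78), Zfp428 (0.67 and -0.82), Car2 (0.67 and -1.12) and Etv4 (0.62 and -2.07) were detected on all 3 arrays. Olig1, Apcdd1, Retsat and Dpysl4 were the rest, and over the 16 genes 13 were detected on CH, PD and untreated arrays.

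The 14 genes lower with CH and higher with PD included Foxd4, which was at least 4.56-fold higher with PD than untreated. Foxd4 and Fgfr2 were detected on neither the CH nor the untreated array, so their lower side, at -0.81 ± 0.20 and -0.60 ± 0.26, lies below background. Sirt1 stood at -0.74 ± 0.13 with CH and 1.07 ± 0.11 with PD, Cldn11 at -0.87 ± 0.11 and 0.90 ± 0.08, and H1f2 at -0.88 ± 0.10 and 0.80 ± 0.10. Pde1b stood at -0.66 ± 0.09 and 0.84 ± 0.08, and Chst1 at -0.92 ± 0.05 and 0.59 ± 0.06. Of the 3 genes with another detected probe, Cdh3, Rarb and Rassf4, 0 passed 1.5-fold both ways by such a probe. Rassf4 stood at -0.50 and 1.09 by 1 of them, and Rarb at 0.13 and 1.12. The class also held Shisa2, Crabp2, Ccn5, Fgfr2 and Atp1b2, and 9 of the 14 were detected on both inhibitor arrays.

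**Figure D4:**
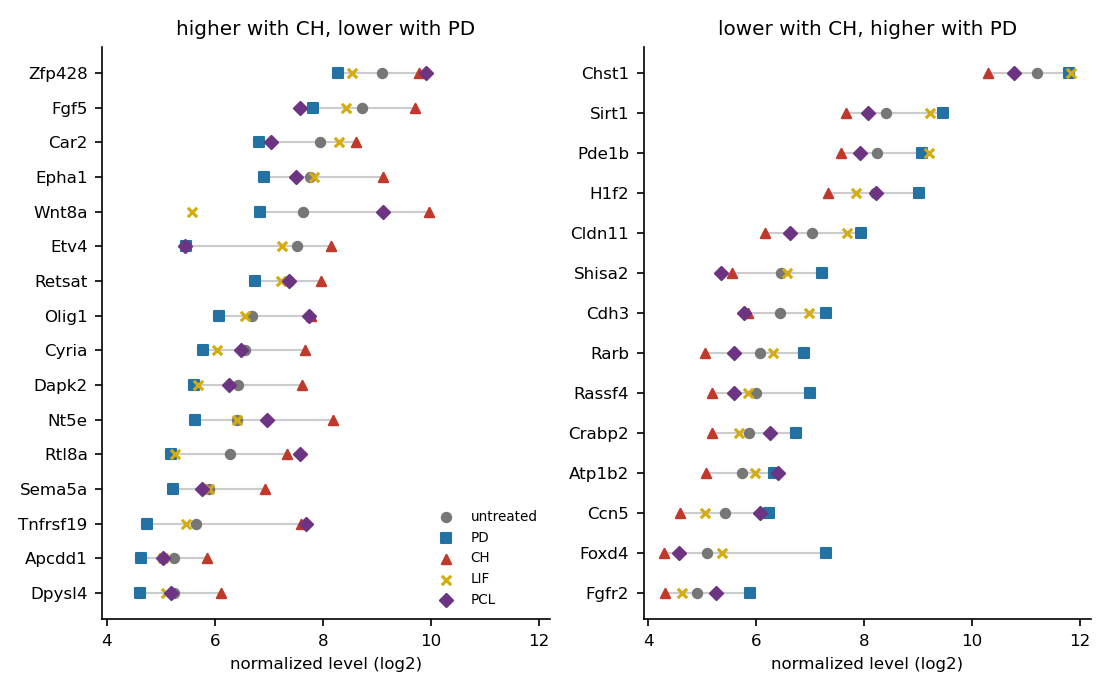
Normalized level (log2) on the 5 arrays of the 16 genes higher with CH and lower with PD than untreated (left) and of the 14 genes the other way (right), ordered by untreated level, with a grey line from the CH to the PD level. The PCL diamond lies near the CH triangle for Tnfrsf19, Olig1 and Foxd4 and near the PD square for Etv4, Car2 and Fgf5.

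Against the LIF array as another reference, 11 of all 7713 genes were higher with CH and lower with PD. In both counts were 6: Epha1, Etv4, Fgf5, Nt5e, Sema5a and Tnfrsf19. They are 6 of 16 and 6 of 11. The other direction had 4 against LIF, of which Foxd4, Rassf4 and Shisa2 were among the 14 as well. The direct CH minus PD difference uses no reference array, and its sign was the same in all other detected probes of the 17 genes 2-fold higher and the 16 genes 2-fold lower that have one. At least 1.5-fold in the same direction by another probe were 14 of those 17 and 15 of those 16. At the 2-fold that defines the classes, 9 of the 17 and 7 of the 16 passed by another probe. All these probes read the same RNA.

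Genes that the inhibitors share were more numerous than opposite ones and depended on the reference. Error in the common untreated array can raise the shared counts and lower the opposite ones, so these counts do not rank the kinds. At least 1.5-fold above untreated with both were 65 genes (0.843%), and below it with both 34 (0.441%). Irx3, a homeobox factor of the neural plate, stood at 6.33 untreated, 7.79 under PD, 7.29 under CH, 5.90 under LIF and 8.77 under PCL, highest with the combination. Klf2, a factor of the naive state, stood in the same order at 6.73, 7.56, 7.61, 7.01 and 8.90, or 0.83 ± 0.15 with PD and 0.88 ± 0.15 with CH from untreated. Rgma, a BMP co-receptor and guidance molecule, stood at 5.89, 6.82, 7.24, 6.53 and 7.84. In these 3 genes the PCL array was above both single inhibitors, which held for 13 of the 65. In 41 it was at or below the lower of them, and in 11 between them.

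Inhbb, a subunit of activin, stood at 0.94 ± 0.17 with CH and 1.10 ± 0.15 with PD, and Lama1, a laminin chain of basement membrane, at 1.22 ± 0.18 and 1.03 ± 0.20. The adaptor subunit Ap3b2, the sorting receptor Sorl1, the repressor Bach1, Pou6f1, Prr5l and Cachd1 stood between 0.85 and 1.44 on each array. The calcium channel subunit relative Cachd1 stood at 1.44 with CH and 0.85 with PD. PCL was also 1.5-fold above untreated in 33 of the 65. This difference uses the same untreated array on which the 65 were chosen, so part of the count is built in. The share over all genes was not counted.

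Among the 34 lower with both, Utf1, a chromatin factor of pluripotent cells, stood at 10.69 untreated, 9.56 under PD, 9.74 under CH, 10.48 under LIF and 8.92 under PCL. Ramp3, a receptor activity modifying protein, stood at 8.07, 6.98, 6.77, 7.66 and 6.60, and its other probes were also lower, at -0.94 to -0.65 with CH and -0.81 to -0.78 with PD. Both genes were lower on all 3 arrays with an inhibitor than on the untreated and LIF arrays. Tcf15, a factor of epiblast cells leaving the naive state, stood at 6.07, 4.83, 5.30, 5.42 and 4.80. The matrix gene Mgp, a fibroblast marker here, stood at 6.65, 5.62, 5.06, 5.32 and 5.10, and the phosphatase Dusp14 at 6.17, 4.93, 5.38, 4.68 and 4.86, so for these the untreated array was the high one of 5. Apoa2, Ppp2r2c, Cd320, Ctsf and Slc35d3 were the others of the 10 with the largest smaller difference. PCL was 1.5-fold below untreated in 19 of the 34, again measured from the untreated array on which the 34 were chosen. The PCL level was at or below the lower inhibitor array in 9, as in Utf1, Ramp3 and Tcf15, at or above the higher in 17 and between them in 8. Of the 34, 25 were detected on both the CH and the PD array. Tcf15 was not detected with PD or PCL, so the order of those levels lies below background. Dusp14 with PD, LIF and PCL and Mgp with CH and PCL were not detected either.

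The shared counts rest on the untreated array. Of the 65 genes, 38 were detected on the CH, PD and untreated arrays, and 6 were also 1.5-fold above the LIF array with both inhibitors: Ap3b2, Cachd1, Igdcc3, Irx3, Meis2 and Plppr3. Against LIF 299 of all 7713 genes compared were higher with both and 47 lower, and that array stood apart. Of the 14 shared higher genes with another detected probe, all such probes had the same signs in 10 and at least 1 in 12, and 0 had a probe past 1.5-fold with both inhibitors. Aen and Smo each had a probe that was lower with both inhibitors. Of 5 shared lower genes another probe passed it in 1, Ramp3, and the lower genes also below LIF were Ramp3, Syne4 and Utf1.

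The median differences of the core and naive pluripotency lists lay near 0. Nanog stood at 10.04 untreated, 10.64 under PD, 10.55 under CH, 10.13 under LIF and 10.80 under PCL, a CH minus PD difference of -0.09 ± 0.09. Sox2 stood at -0.55 ± 0.14 and Esrrb, an orphan receptor of naive cells, at 0.15 ± 0.12. The 12 core genes had a median of -0.05 and the 14 naive genes of 0.07, with Gbx2 past 2-fold upwards, Fgf4 past 2-fold downwards at -1.27 and Klf5 at 0.80 ± 0.09. Of 18 primed epiblast genes, Fgf5, Dnmt3l and Foxa2 were higher and 0 lower past 2-fold by measured level, and the median was -0.22. The bound of Foxa2, given above, falls short of 2-fold. Dnmt3l, a cofactor of DNA methylation, stood at 8.05, 6.88, 8.09, 7.86 and 6.93, low on both arrays with the MEK inhibitor, with a difference of 1.21 ± 0.12 (other probe 1.15). The epiblast factor Otx2 stood at -0.65 ± 0.08.

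Among other lists, the integrated stress response had 23 of 28 genes above 0 with a median of 0.25, and Cars, a tRNA synthetase, at 1.02 ± 0.24 was the member past 2-fold. Its regulator Atf4 stood at 0.56 ± 0.09. Sterol and fatty acid genes had 16 of 22 below 0 (median -0.23), and insulin, FoxO and mTOR responsive genes 16 of 19 below 0 (median -0.27, and -0.10 with no filter), with Igfbp5 and the Kruppel-like factor Klf6 (-1.42 ± 0.11, other probe -1.13) past 2-fold. Over all genes 3731 stood above and 3972 below 0. In the list of Myc, cyclins and CDK inhibitors, whose median was 0.12, Cdkn1b stood at -1.03 ± 0.17, and the 22 replication and mitosis genes had a median of -0.13. STAT3 and LIF pathway genes had a median of 0.07, with Socs3, the feedback inhibitor, at 7.64, 6.79, 7.63, 9.42 and 8.94, low with PD and high on both arrays that received LIF.

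Lists with medians near 0 were housekeeping (0.03), p53 targets (0.01), BCL2 family (0.00), interferon-responsive (-0.02, with Bst2 at 1.42 ± 0.28) and glycolysis (-0.08, with the glucose transporter Slc2a1 at -0.89 ± 0.05). Neural ectoderm genes had a median of -0.26 over 8, and epithelial junction genes of -0.17 over 22, with Cldn3 at -1.32 ± 0.13. Histone genes had a median of -0.17, with H1f2 and H1f10 (-1.25 ± 0.13, other probe -0.86) past 2-fold, both of them linker histones. Extraembryonic genes had a median of 0.35 over 13, of which 9 were detected on both arrays, and 0.23 with undetected probes at their bound. Among them the protease inhibitor Spink1 stood at 1.59 ± 0.09. Germ cell genes had a median of 0.32 over 7, with the AP2 factor Tfap2c at 0.62 ± 0.11. In Spink1 the untreated and CH arrays were level, at 9.37 and 9.43, and the PD, LIF and PCL arrays low, at 7.84, 6.94 and 7.72.

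The array that lay past 1.5-fold from untreated differed by gene. Of the 78 genes higher with CH, 35 had passed 1.5-fold from untreated with CH alone, 24 with PD alone, 16 with both in opposite directions and 3 with neither. For the 69 lower the numbers were 33, 17, 14 and 5. On the PCL array, where both inhibitors and LIF were present, 58 of the 78 and 59 of the 69 lay between the CH and PD levels. The untreated level lay between them in 69 of the 78 and 63 of the 69. The LIF level was above both in 3 and below both in 18 of the 78, and above both in 12 and below both in 3 of the 69. The genes were chosen for CH and PD levels far apart, so a level between them is not particular to the combination. The PCL level was nearer to CH in 37 and to PD in 41 of the 78, and nearer to CH in 40 and to PD in 29 of the 69.

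The PCL level was nearer to CH in 21 of the 35 genes past 1.5-fold above untreated with CH alone, among them Fst, Sp5, Fgf8, Axin2, Nodal and Fzd10, and nearer to PD in 14, among them Mixl1, Foxa2 and Fgf17. In these 35 the PD array could also differ from untreated by less than 1.5-fold, and their median level was 5.23 with PD and 5.62 untreated. The PCL level was nearer to PD in 16 of the 24 genes past 1.5-fold below untreated with PD alone, among them Egr1, Dusp4, Dusp6, Dnmt3l and Sema7a, and nearer to CH in 8, among them Pdyn and Rtl8b. Of the 33 genes past 1.5-fold below untreated with CH alone, 17 were nearer to CH on the PCL array, among them Fgf4 and Frat2, and 16 nearer to PD, among them Cldn3 and H1f10. Of the 17 genes past 1.5-fold above untreated with PD alone, 10 were nearer to CH on the PCL array, among them Igfbp5, Klf6 and Cdkn1b, and 7 nearer to PD, among them Lox, Cd248 and Timp3. Lox, Cd248 and Timp3 are fibroblast markers, whose summed level with PCL, in which Acta2 weighs most, is given above. Of the genes on opposite sides of untreated, 7 of the 16 higher with CH and 9 of the 14 lower were nearer to CH. The PCL medium also held LIF, and the share of each agent in its levels cannot be told apart.

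**Figure D5:**
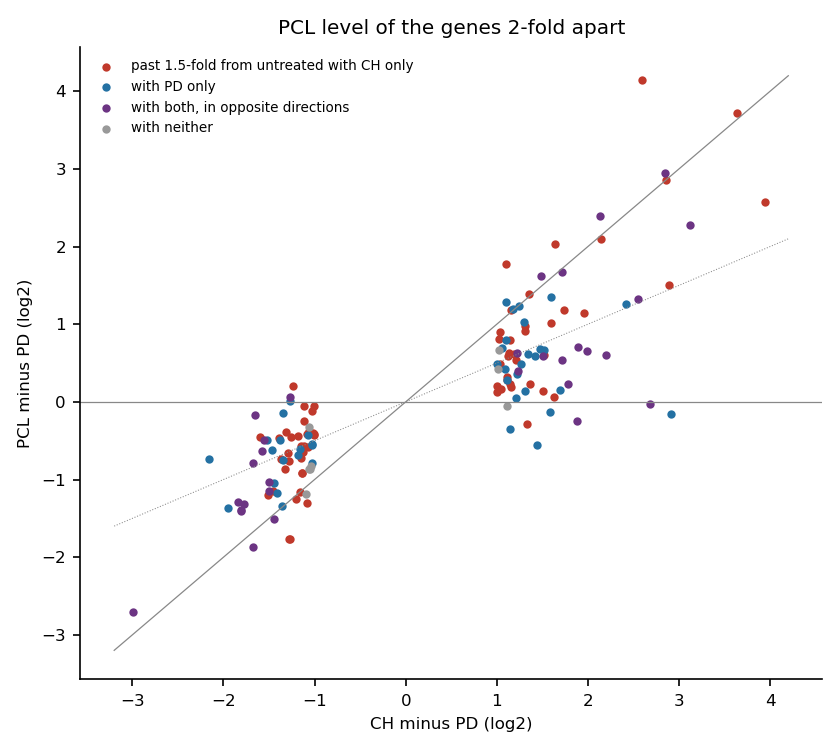
PCL minus PD against CH minus PD (log2) for the 147 genes at least 2-fold apart, coloured by which inhibitor array had passed 1.5-fold from untreated. On the diagonal the PCL level equals the CH level, on the horizontal line the PD level, and the dotted line is midway. Gbx2 lies above the diagonal, and Egr1 and Etv4 lie close to the horizontal line at the right.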

How the data were processed

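Per the file headers, the authors deposited for each array a mean bead intensity on a linear scale with no background subtracted, its standard error over beads, and a detection p-value. The submitters' processing notes name BeadStudio without a version. A second deposited table holds the authors' processed intensity values as whole numbers, whose scaling is unknown, and it served as an alternative.

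Scanner intensities of the 5 arrays were normalized as 1 set by the neqc function of limma 3.58.1, run in R 4.3.3 (normal-exponential background correction whose negative control parameters limma derives from those p-values, an offset of 16, quantiles, log2). The offset shrinks the differences of dim probes. Of 25697 probes, 23978 had 1 gene symbol in the platform annotation and 1719 had none, and the probe with the highest mean level stood for a gene. Python 3.11.15 with pandas 2.3.3, numpy 2.4.6 and matplotlib 3.10.9 was used for tables and figures. The normalization was tested on simulated copies of the untreated array with bead noise, in which some bright probes were raised on 1 copy. The simulation held no differences between cultures and raised no dim probes, so it does not bear on either.

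The labels give 1 array per condition, so no test was made and no p-value computed. The number of arrays limits the precision, and the ± of each difference is the bead standard error propagated to the log2 scale. Where a probe was not detected (detection p of 0.01 or more) on 1 array, "at least N-fold" sets the brighter level against the dim probe's own level or, if that is higher, against the lowest level of any probe detected on the dim array.

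The genes, the 28 gene lists and the alternatives were chosen with earlier results of these data known. Named genes were the 20 most higher and 20 most lower with CH than PD past 2-fold, the 10 of each opposite and shared class with the largest smaller difference from untreated, up to 5 members of each list with the largest difference, and a fixed panel, with gene model names left out. Genes named from outside this rule were chosen after their values were seen.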

Additional observations from a re-analysis of the deposited data

How the results depend on the processing

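Dim genes set the limits: median raw intensity lay between 90.0 and 96.1 per array, against 80.6 to 85.9 for probes near the negative controls, so each count moves with the background correction and the offset. No paired analysis was possible because each condition had 1 array, and no array could be left out of a comparison of 2 arrays. In the order higher with CH than PD (78), lower with CH than PD (69), opposite with CH higher (16), opposite with CH lower (14), shared higher (65) and shared lower (34), the counts were 25, 14, 2, 1, 3 and 2 without background correction. At offset 1 they were 231, 249, 49, 39, 237 and 88, and at offset 50 they were 37, 28, 6, 4, 16 and 8. At 1.5-fold the first pair became 412 and 489. The 4 counts from untreated became 87, 85, 454 and 290 at a difference of 25% in place of 1.5-fold, and 1, 0, 2 and 2 at 2-fold. Against the LIF array, opposite with CH lower became 4 and shared higher 299, and against the mean of the untreated and LIF arrays shared lower became 16. Opposite with CH lower was 9 with detection on both arrays, shared higher was 41 with undetected probes at their bound, and shared lower was 83 with no detection filter. Over the 11 settings that bear on single genes, 178 of 187 named genes kept their sign, among them the 64 past 2-fold, and the other 9, all within 2-fold, reached or crossed 0 in at least 1 setting. All settings use the same arrays and the 64 are large differences by choice, so a kept sign is no check of the differences themselves. Of 308 list medians, 2 turned sign, both of the BMP list (0.13), to -0.04 over members detected on both arrays and to -0.03 with the median over detected probes. Median scaling, normalization of the CH, PD and untreated arrays alone, and the authors' processed values left each of the 6 counts within 1.5 times.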
